A study of Rattus norvegicus with 16 samples.

Results

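Left ventricles of rats that had carried an aortocaval fistula (ACF) for 24 weeks were compared with those at 16 weeks, the age of the fistula at which the study places heart failure (HF). The ACF is a shunt between the abdominal aorta and the inferior vena cava that overloads the heart with volume (VO). The members are the 8 arrays that the labels give to these 2 time points, 4 at 24 weeks and 4 at 16 weeks, out of 16 arrays in all, and each array measured 14218 genes. The other 8 arrays, 4 from control rats and 4 at 8 weeks after ACF, are quoted only beside genes of interest. All rats were male adult Sprague-Dawley rats, which is an outbred strain, and each array held the RNA of 1 rat. By their titles both groups carried the ACF, and the titles name no correction of VO. The study describes ACF groups at 8 and 16 weeks but none at 24 weeks. In the descriptions that go with the titles, the arrays at 24 weeks carry 24, 25, 26 and 27 weeks, so this group may span several ages of the fistula, whereas all 4 arrays at 16 weeks read 16. The study made the fistula in young adult rats within a narrow range of age, so rats at 24 weeks should have been older. The labels name no sham-operated rats of either time, so age and the duration of VO cannot be told apart. The labels call the control rats baseline, whereas the study describes its array comparisons as made against sham controls. The time of day at which the hearts were taken is not given in the sources used here.

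Values are log2 intensities, each set against the median of its own array, and a difference is the mean at 24 weeks minus the mean at 16 weeks. An intensity of 0 is therefore that of the middle probe set of an array. The lowest 10% of the genes lay below -1.92 on this scale, and the median gene at 1.10. Before centring, the arrays stood at 2 levels. All 4 arrays at 24 weeks and 2 arrays at 16 weeks (replicates 3 and 4) had medians between 5.92 and 5.96, and the other 2 arrays at 16 weeks (replicates 1 and 2) had medians of 6.13 and 6.14. All control arrays stood at the higher level, with medians of 6.13 to 6.17. Differences between control rats and rats at 24 weeks therefore cannot be told apart from the array level. The origin of the levels is not given in the sources used here. Values within the lower level set the 4 arrays at 24 weeks against replicates 3 and 4 at 16 weeks. They are given beside most named genes whose difference moved by over 1.5 times within that level and beside most gene lists. The potassium channel, antioxidant, hypertrophy, calcium and respiratory chain lists, and Ankrd2, Ankrd23 and Myot, are given over all 8 arrays only. These may depend on the array level. Ventricular muscle was plain in every array, since Myl2, the ventricular myosin light chain, lay between 8.18 and 8.25 at 24 weeks and between 8.15 and 8.24 at 16 weeks. The mean level of 19 ventricular cardiomyocyte markers was 7.55 to 7.59 at 24 weeks and 7.30 to 7.58 at 16 weeks, with the lowest value in replicate 1 at 16 weeks. Replicate 3 at 24 weeks also carried atrial genes, with Myl7, the atrial myosin light chain, at 6.55 against 0.45 to 2.92 in the other 3 arrays at 24 weeks. At 16 weeks Myl7 lay between -0.57 and 4.01. In whole tissue, fewer cells of a type and less RNA per cell cannot be told apart.

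Ventricular myocytes carry a circadian clock of their own. In mammals Bmal1 pairs with Clock or Npas2 and switches on the Per and Cry genes, whose proteins then hold the pair back, while the nuclear receptors Nr1d1 and Nr1d2 repress Bmal1 and the Ror receptors activate it. Dbp, Tef and Hlf are output factors that bind D-box elements, Nfil3 represses at the same elements, and all of these transcripts can swing over the day. The extracellular matrix, the other theme of this comparison, is laid down by fibroblasts and reworked by proteases, and its matricellular members such as periostin mark active remodeling of the overloaded or injured ventricle.

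Across the 14218 genes the groups were close to each other. The median difference was -0.01, and 98.2% of the genes differed by less than 1.5-fold, the size that the study's methods ask for. With limma, which steadies each gene's spread by that of the other genes, and Benjamini-Hochberg adjustment over all genes, 1 gene was higher at 24 weeks at an adjusted p under 0.05 (0.00703% of the genes), namely Dbp, and 0 genes were lower (0%). Without adjustment, p was under 0.05 for 341 higher genes (2.40%) and 525 lower genes (3.69%), together 866 or 6.09%. At the threshold of the study's methods, a fold above 1.5 and an unadjusted p under 0.05, 54 genes were higher (0.380%) and 131 lower (0.921%). These counts moved with the arrays, to 40 higher and 201 lower with arrays not centred, 60 and 71 within the lower level and 86 and 75 without replicate 4 at 24 weeks. Within the lower level, where 4 arrays stand against 2, an unadjusted p under 0.05 was reached by 1.27% of the genes as higher and 1.60% as lower, and by the methods' test on all 8 arrays by 1.84% and 2.71%. In 184 genes (1.29%) all 4 arrays at 24 weeks lay above all 4 at 16 weeks, and in 233 genes (1.64%) all lay below. For a single gene the exact permutation test (two-sided, 4 against 4 arrays) cannot go below p = 0.0286, so that test can only just pass. Apart from Dbp, every gene named from here on is therefore given by its values, and its difference did not pass the adjusted test.

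Promoters of 4 clock genes are printed here because the results turn on these genes and because the elements of the loop can be read in them. The window runs from 250 bases before to 50 bases after the start of the gene (RefSeq, build GRCr8), and it was found for 16 of the 21 clock genes measured, all but Clock, Cry1, Nr1d1, Hlf and Csnk1d. Searched on both strands were the E-box CACGTG, to which Bmal1 and its partners bind, the D-box as TTATGTAA or TTACGTAA, and the Ror element as AANT followed directly by AGGTCA or GGGTCA. Matches stand in capitals, and no match shares a base with another.
Bmal1 (chr1:176766078-176766377, plus strand): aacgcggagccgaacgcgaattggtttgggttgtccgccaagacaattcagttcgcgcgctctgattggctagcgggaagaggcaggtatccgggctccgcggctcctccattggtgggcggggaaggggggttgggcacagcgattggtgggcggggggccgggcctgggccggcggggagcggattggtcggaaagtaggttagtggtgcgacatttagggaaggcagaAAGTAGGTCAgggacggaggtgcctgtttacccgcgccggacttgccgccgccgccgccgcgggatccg
Per2 (chr9:99496944-99497243, minus strand): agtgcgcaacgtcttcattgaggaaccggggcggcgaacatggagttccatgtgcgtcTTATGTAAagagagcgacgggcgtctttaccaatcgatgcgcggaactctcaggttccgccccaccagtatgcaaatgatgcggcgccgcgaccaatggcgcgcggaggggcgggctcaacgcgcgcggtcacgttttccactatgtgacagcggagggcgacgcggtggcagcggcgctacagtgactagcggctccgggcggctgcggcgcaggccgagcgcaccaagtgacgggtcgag
Bhlhe41 (chr4:180569306-180569605, minus strand): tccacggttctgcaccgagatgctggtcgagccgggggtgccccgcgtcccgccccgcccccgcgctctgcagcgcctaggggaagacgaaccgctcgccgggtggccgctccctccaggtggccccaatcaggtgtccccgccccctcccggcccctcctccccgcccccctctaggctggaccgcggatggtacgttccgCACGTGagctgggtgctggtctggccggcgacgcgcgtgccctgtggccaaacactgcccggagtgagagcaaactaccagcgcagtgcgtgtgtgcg
Dbp (chr1:105312006-105312305, plus strand): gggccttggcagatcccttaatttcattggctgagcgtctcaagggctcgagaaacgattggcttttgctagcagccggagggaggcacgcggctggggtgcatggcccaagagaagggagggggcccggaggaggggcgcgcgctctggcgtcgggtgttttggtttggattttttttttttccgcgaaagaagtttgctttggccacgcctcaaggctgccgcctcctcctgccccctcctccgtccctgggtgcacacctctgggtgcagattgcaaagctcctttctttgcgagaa
The Bmal1 window held 1 Ror element, AAGTAGGTCA, from base -19 to base -10 counted from the start, and the Per2 window held 1 D-box, TTATGTAA, from base -192 to base -185. E-boxes were in the windows of Tef, Bhlhe40 and Bhlhe41, 3 of the 16. Of 33469 rat promoters of the same length, 6.42% held the E-box, 1.01% a D-box of either spelling and 0.481% a Ror element of either spelling. The Dbp window held none of these letters, which says nothing of elements elsewhere in the gene. A match describes the sequence and is not a site shown to be bound.

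Dbp rose about 4-fold at 24 weeks and was the clearest difference of the comparison. Its values were 3.19, 2.80, 3.24 and 3.04 at 24 weeks, against 1.08, 1.10, 1.09 and 0.93 at 16 weeks. The groups lay far apart, with means of 3.07 ± 0.20 at 24 weeks and 1.05 ± 0.08 at 16 weeks (SD, n = 4 each). The difference was 2.02 (SE 0.12), a fold of 4.04, with an adjusted p of 4.40e-05 by limma and an exact permutation p of 0.0286. Control rats had 3.29 to 3.77 and rats at 8 weeks 0.55, 3.17, 2.62 and 1.93, so that the arrays at 8 weeks spanned the whole range between the other groups. That spread enters a fit over more arrays. With the 8-week arrays in the fit, the adjusted p of Dbp was 0.251, and with all 16 arrays it was 0.0840, at the same difference. The call held without any 1 of the 8 arrays (difference 1.96 to 2.10), and within the arrays of the lower level the difference was 2.06.

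Several other clock genes, among them Nr1d2, Per2 and Per3 of the repressing arm and the output factors Tef and Hlf, had higher values at 24 weeks without passing the test, whereas Cry1 (-0.07) and Nr1d1 (-0.05) of the same arm were close in both groups. Nr1d2, the nuclear receptor REV-ERB-beta, had 4.32, 4.40, 4.35 and 4.12 at 24 weeks, against 3.55, 3.62, 3.52 and 3.16 at 16 weeks. The groups did not overlap, and the difference was 0.84 (SE 0.12, adjusted p = 0.0966 by limma). Per2, a repressor of the loop, had 3.24, 3.64, 3.29 and 3.21 at 24 weeks, against 2.42, 1.60, 2.38 and 1.40 at 16 weeks. All arrays at 24 weeks were above all at 16 weeks, a difference of 1.39 (SE 0.23, adjusted p = 0.173 by limma). A second, dimmer probe set of Per2 differed by 0.07, so the gene's probe sets disagreed. Per3 had 0.30, 0.59, 0.90 and 0.43 at 24 weeks, against -0.01, -0.28, -0.70 and -0.17 at 16 weeks, and its second probe set, which was dim, differed by 0.05. The output factors Tef and Hlf lay the same way without overlap, with differences of 0.61 and 0.65. Bhlhe41, a repressor that competes for E-boxes, differed by 0.66, and Cry2 by 0.37. Per1 differed by 0.74 with overlapping arrays, because replicate 3 at 16 weeks (2.99) stood with the 24-week arrays (2.53 to 3.07).

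Bmal1 and its partners Clock and Npas2 had lower values at 24 weeks, while the Ror genes, the other activators, overlapped, with Rora at 0.17 and Rorb at -0.05. Bmal1 had 0.19, 0.40, 0.39 and 0.10 at 24 weeks, against 0.79, 2.55, 2.02 and 1.96 at 16 weeks. The 24-week arrays were tight and replicate 1 at 16 weeks lay nearest to them, with a difference of -1.56 (SE 0.29, adjusted p = 0.317 by limma). Without single arrays the difference ran from -1.90 to -1.32, with -1.90 and an adjusted p of 0.00246 by limma without that replicate. Leaving out the array nearest to the other group widens the difference by construction, so that p adds no support. Within the arrays of the lower level, which also lack that replicate, the values were -1.72 and 0.00403. Npas2, which can stand in for Clock, had -0.87, -0.74, -0.30 and -1.92 at 24 weeks, against -0.13, 1.06, 0.88 and 0.60 at 16 weeks. Its difference was -1.55 (SE 0.33), and again replicate 1 at 16 weeks came closest to the 24-week values. Clock itself had 2.43, 2.76, 2.71 and 1.98 at 24 weeks, against 3.02, 3.17, 3.00 and 2.86 at 16 weeks. Nfil3, the repressor at D-boxes, had 1.22, 1.44, 1.18 and 1.53 at 24 weeks, against 1.54, 1.96, 2.26 and 1.82 at 16 weeks, so that its groups all but touched. Both differed by -0.55.

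Of the 23 genes on the clock list 21 were measured. Dbp was the 1 member that passed, and the other 20 did not. At an unadjusted p under 0.05, 9 members were higher at 24 weeks and 4 lower, and in 12 the arrays of the groups did not overlap, 8 higher and 4 lower. Over all genes these shares were 2.40%, 3.69% and, for arrays that did not overlap in either direction, 2.93%. The median difference of the list was 0.25, against -0.01 over all genes, and it joins members that lay in opposite directions. In the arrays of the lower level alone 8 members were higher and 3 lower at an unadjusted p under 0.05, against 1.27% and 1.60% of all genes. Little separated the groups in Csnk1e (-0.02) and Csnk1d (0.08), kinases that act on the Per proteins. At 8 weeks the rats did not stand together on these genes. Replicate 2 at 8 weeks had Dbp at 3.17, Per2 at 3.66 and Bmal1 at -0.09, whereas replicate 1 at 8 weeks had Dbp at 0.55, Per2 at 1.33 and Bmal1 at 2.04. Replicate 2 was also the only 8-week array at the lower level. Replicates 3 and 4 at 16 weeks, of the same lower level, had Dbp at 1.09 and 0.93. The part of the array level in the spread at 8 weeks was not tested.

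**Figure D1:**
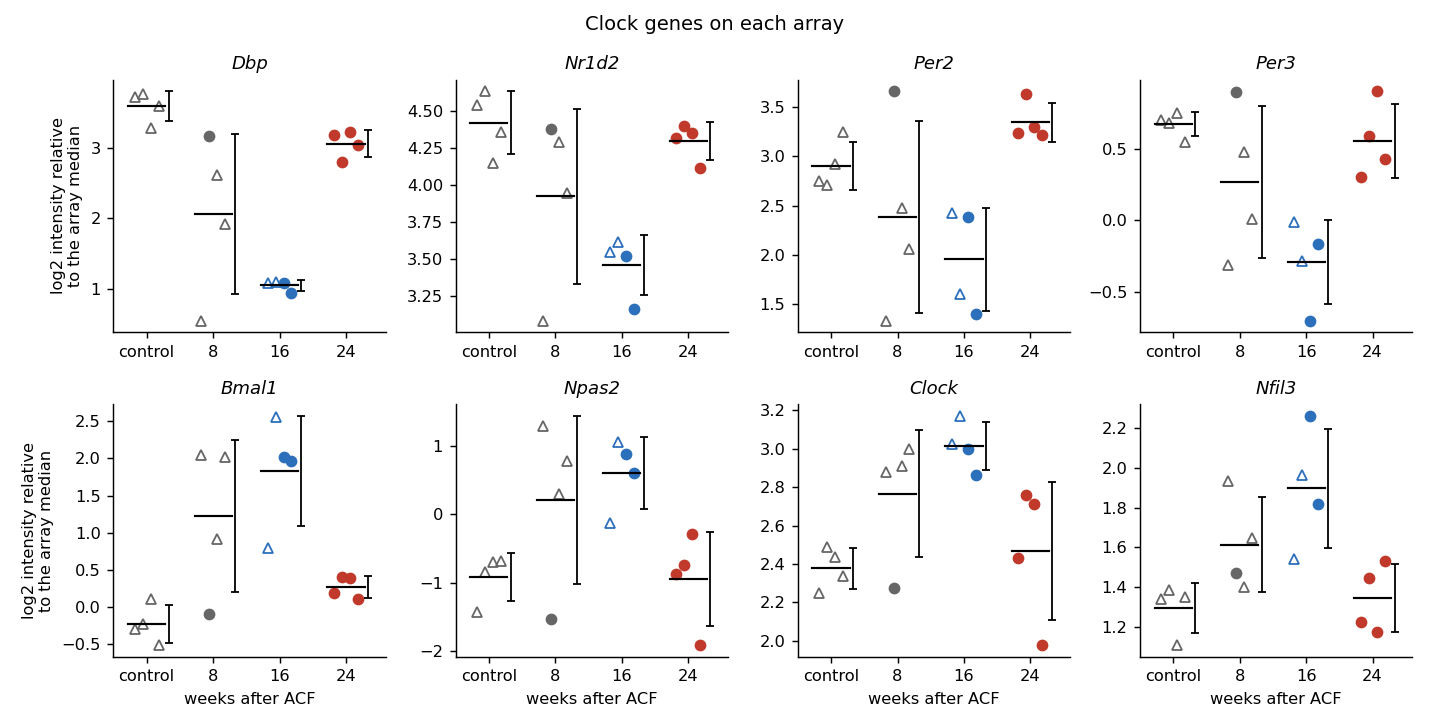
Log2 intensity relative to the array median (vertical axis) of 8 clock genes in control rats and at 8, 16 and 24 weeks after ACF; each point is 1 array, bars are the mean and the SD of 4 arrays, and open triangles are arrays at the higher median level. Dbp, Nr1d2, Per2 and Per3 lay higher at 24 than at 16 weeks and Bmal1, Npas2, Clock and Nfil3 lower, while the 8-week arrays of Dbp ran between 0.55 and 3.17.

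Among the other genes higher at 24 weeks, those with the smallest p values and arrays that did not overlap had differences of 0.76 to 1.49. Usp2, a deubiquitinase whose transcript cycles in many rodent tissues, had 4.07, 3.80, 4.19 and 4.38 at 24 weeks, against 3.43, 3.32, 3.43 and 3.15 at 16 weeks. Both of its probe sets lay higher, by 0.78 and 0.89. Ephx1, the microsomal epoxide hydrolase, had 2.41, 2.23, 2.64 and 2.24 at 24 weeks, against 1.60, 1.86, 1.38 and 1.58 at 16 weeks. In control rats Ephx1 was at 2.20 to 2.49, close to the 24-week arrays, and replicate 1 at 8 weeks, which was the lowest there in Dbp, was at 0.88. Depp1, a target of the FoxO factors, had 5.53, 5.46, 5.68 and 5.41 at 24 weeks, against 4.47, 4.61, 4.96 and 4.70 at 16 weeks (difference 0.84, SE 0.12, adjusted p = 0.0966 by limma). Tob2, an antiproliferative partner of the deadenylase complex, had 3.63, 3.91, 3.76 and 3.59 at 24 weeks, against 2.70, 2.90, 3.30 and 2.53 at 16 weeks. Both Depp1 and Tob2 stood apart from 16 weeks in every array. Mtarc1, a mitochondrial reductase, differed by 0.76, but both groups lay below the median probe set or near it, at -0.18 to 0.23 at 24 weeks and -1.05 to -0.53 at 16 weeks.

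Kcna5, the potassium channel Kv1.5, had the largest difference of the 26 potassium channel genes measured. Its values were 1.58, 1.17, 1.65 and 1.36 at 24 weeks, against -0.21, -0.29, 1.03 and -0.74 at 16 weeks, and the third of the 16-week arrays nearly reached the 24-week group. The difference was 1.49 (SE 0.31, adjusted p = 0.386 by limma). Without single arrays it ran from 1.26 to 1.85, with 1.85 and an adjusted p of 0.00401 by limma without replicate 3 at 16 weeks. That array also stood out in Per1, and without it Depp1 (adjusted p 0.0454) and Tob2 (adjusted p 0.0468) came past the threshold too. In Kcna5, Depp1 and Tob2 it was the 16-week array nearest to the 24-week group. Leaving it out therefore widens the difference by construction and adds no support. Of these 26 genes 3 were higher and 0 lower at an unadjusted p under 0.05, against 2.40% and 3.69% of all genes. The others were Kcnh2, the channel of the rapid delayed rectifier, at 0.32, and Kcnd3, a channel of the transient outward current, at 0.43. Kcnd3 had 0.34 and 0.10 in replicates 1 and 2 at 16 weeks but 0.72 and 1.11 in replicates 3 and 4, and within the lower level its difference was 0.09. Another probe set of Kcnd3, about as bright, differed by -0.0014 and a dimmer probe set by -0.17, so its probe sets disagreed. Kcne1, a channel subunit, was at -0.50 with overlapping arrays.

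Timp4, the inhibitor of metalloproteinases that is most typical of the heart, lay higher at 24 weeks while Timp1 lay lower. Timp4 had 2.82, 1.85, 2.95 and 2.89 at 24 weeks, against 1.68, 1.68, 1.31 and 1.83 at 16 weeks. Replicate 2 at 24 weeks lay just above the highest 16-week array, at a difference of 1.00 (SE 0.23, adjusted p = 0.455 by limma). Without single arrays the difference ran from 0.90 to 1.26, with 1.26 and an adjusted p of 0.0234 by limma without that replicate. As it lay nearest to the other group, leaving it out widens the difference by construction and adds no support. Timp1, the inhibitor that is induced in fibrosis, had 2.29, 2.83, 2.54 and 1.91 at 24 weeks, against 5.42, 4.80, 2.61 and 3.10 at 16 weeks. Its 16-week arrays fell into pairs by array level. Within the lower level the difference was -0.46, against -1.59 over all 8 arrays. Timp2 (-0.24, and -0.10 within the lower level) and Timp3 (0.22, and 0.34 within it) overlapped. Of the 8 matrix protease inhibitors measured 1 was higher and 1 lower at an unadjusted p under 0.05 (2.40% and 3.69% of all genes). Within the lower level 2 were higher and 0 lower (1.27% and 1.60%).

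Lox, the lysyl oxidase that crosslinks collagen and elastin, was lower at 24 weeks in every array without passing the adjusted test. It had 1.29, 2.22, 1.63 and 1.07 at 24 weeks, against 3.85, 2.87, 2.95 and 2.53 at 16 weeks. No arrays overlapped, the difference was -1.496 (SE 0.29, adjusted p = 0.329 by limma), and within the lower level it was -1.19. A second probe set of Lox differed by -1.06. Control rats had 0.84 to 1.16 and rats at 8 weeks 1.80 to 2.73, so the arrays at 16 weeks (2.53 to 3.85) and at 8 weeks overlapped. Adamts4, a protease of aggrecan and versican, had -2.11, -1.60, -1.504 and -1.57 at 24 weeks, against -0.98, -0.90, -0.47 and -1.02 at 16 weeks, all of it below the median probe set. Its difference of -0.85 was about the same within the lower level (-0.95). Col5a3, a chain of type V collagen, differed by -0.79 without overlap and by -0.89 within the lower level. Eln, which encodes elastin, had 0.63, 0.72, 0.79 and 0.57 at 24 weeks, against 1.26, 1.32, 1.25 and 0.89 at 16 weeks. Eln lay lower in every array, at a difference of -0.50, although its dimmer probe set gave 0.15.

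The matricellular genes had wide gaps that rested in part on 2 arrays. Spp1, which encodes osteopontin, had the lowest difference of all 14218 genes. Its values were -0.03, 0.74, 2.44 and 0.99 at 24 weeks, against 4.93, 3.33, 2.18 and 3.92 at 16 weeks. Replicate 3 at 24 weeks exceeded replicate 3 at 16 weeks, and the difference was -2.56 (SE 0.58, adjusted p = 0.455 by limma). Postn, the gene of periostin, had 2.31, 4.01, 2.88 and 2.09 at 24 weeks, against 5.17, 5.17, 3.81 and 3.63 at 16 weeks. Tnc, the gene of tenascin C, had -1.90, -1.92, -1.80 and -1.58 at 24 weeks, against 1.17, 0.42, -1.74 and -0.64 at 16 weeks. For both genes replicates 1 and 2 at 16 weeks, the arrays of the higher level, were the highest. Within the lower level the differences were -2.02 for Spp1, -0.89 for Postn and -0.61 for Tnc, against -1.62 for Postn and -1.60 for Tnc over all 8 arrays. Fn1, the gene of fibronectin, differed by -0.83 over all 8 arrays and by -0.44 within the lower level. Control rats had Postn at -0.71 to 2.07 and Tnc at -2.70 to -2.43. Tnc at 24 weeks (-1.92 to -1.58) lay above the control range in every array, but all control arrays stood at the higher array level. These Tnc values are near the bound of the dimmest 10% of the genes (-1.92), where differences are hard to measure.

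Counts over the matrix lists held more lower than higher members at 24 weeks, with no member past the adjusted test, and the counts were smaller within the lower level. At an unadjusted p under 0.05, lower members numbered 5 of 17 measured for matricellular proteins, 4 of 20 for fibrillar and network collagens, 3 of 15 for collagen processing, 5 of 18 for elastic fibre assembly and 4 of 17 for matrix proteases, against 3.69% of all genes. Higher members numbered 0 in each of these 5 lists. Lists can share members, as collagen processing and elastic fibre assembly share Lox, so these counts are not independent of each other. On the arrays of the lower level the lower members numbered 2 for matricellular proteins, 1 for the collagens, 1 for collagen processing, 2 for elastic fibre assembly and 1 for matrix proteases, against 1.60% of all genes, with 1 higher member in collagen processing and 0 in the other 4 lists. By the methods' test on all 8 arrays the lower members numbered 3, 1, 2, 3 and 1 in the same order, against 2.71% of all genes. The medians were -0.32 for matricellular proteins, -0.21 for matrix proteases, -0.11 for elastic fibre assembly, -0.06 for the collagens and -0.02 for collagen processing, against -0.01 over all genes, so that the collagens as a list stood near all genes. These medians were, within the lower level, -0.06 for matricellular proteins, -0.12 for matrix proteases, -0.07 for elastic fibre assembly, -0.04 for the collagens and -0.02 for collagen processing. Examples among the collagens were Col5a2 (-0.65), Col12a1 (-0.86) and Col1a2 (-0.42), and among the fibre genes Fbn1, which encodes fibrillin (-0.69), and Loxl1 (-0.63). Another probe set of Col1a2, about as bright, differed by -0.05, and the dimmer probe sets of Col12a1 by -0.07 and -0.20, so their probe sets disagreed. Loxl2, a relative of Lox, differed by -0.56 without overlap and by -0.25 within the lower level, and Tgm2, a transglutaminase that crosslinks matrix proteins, by -0.45 with overlap and by -0.28 within it. Mmp12, the macrophage elastase, differed by -1.01, and Mmp14, a membrane-bound protease, by -0.63. Values of the other members within the lower level were -0.24 for Col5a2, -0.17 for Col1a2, -0.31 for Col12a1, -0.53 for Fbn1, -0.37 for Mmp12 and -0.38 for Mmp14.

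**Figure D2:**
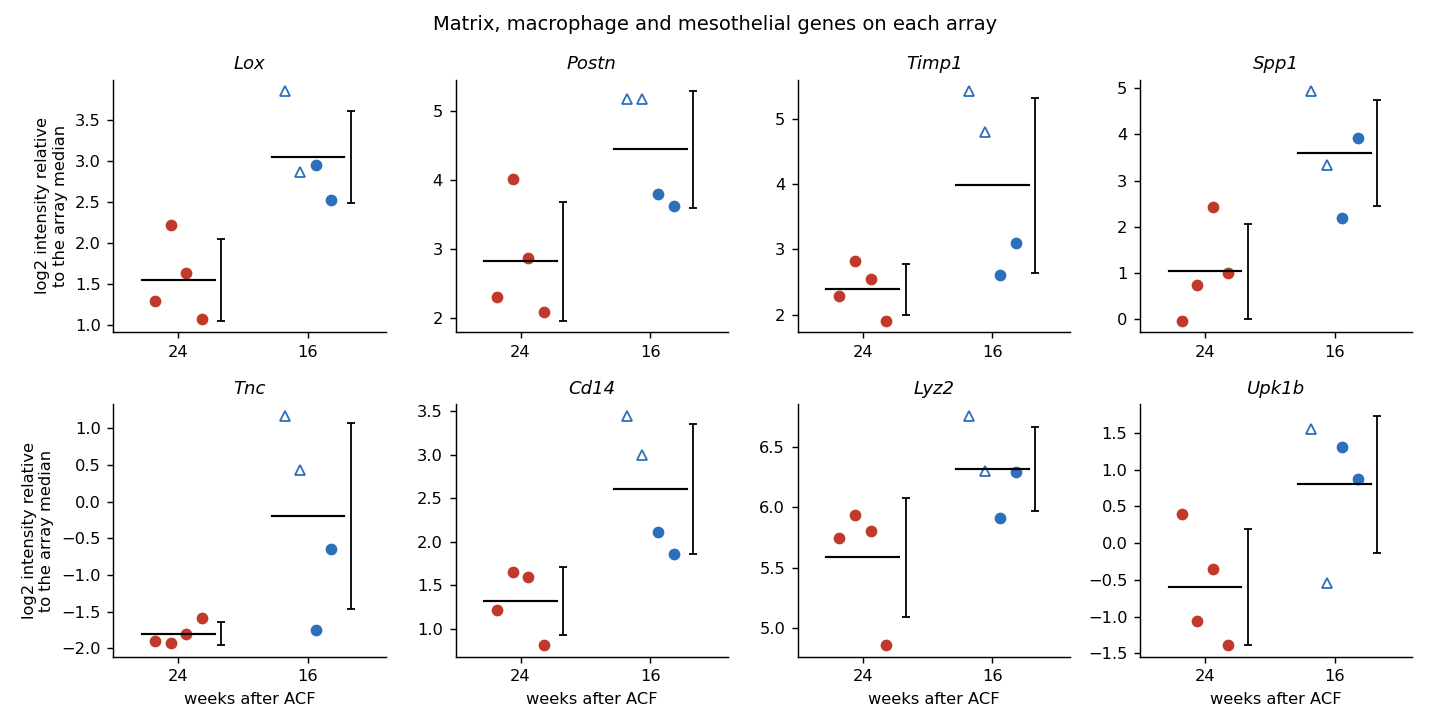
Log2 intensity relative to the array median (vertical axis) at 24 and 16 weeks after ACF for matrix genes (Lox, Postn, Timp1, Spp1, Tnc), macrophage genes (Cd14, Lyz2) and the mesothelial gene Upk1b; each point is 1 array, bars are the mean and the SD of 4 arrays, and open triangles are arrays at the higher median level. Postn and Timp1 at 16 weeks split by array level, with 5.17 and 5.17 against 3.81 and 3.63 for Postn, while Lox was separated from the 24-week arrays at both levels.

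Most macrophage markers had lower values at 24 weeks, and less so within the lower level. Cd14, the coreceptor for endotoxin on myeloid cells, had 1.21, 1.65, 1.59 and 0.81 at 24 weeks, against 3.45, 3.00, 2.11 and 1.85 at 16 weeks. The groups did not overlap, at a difference of -1.29 (SE 0.32, adjusted p = 0.561 by limma) that was -0.67 within the lower level. Lyz2, the myeloid lysozyme, had 5.75, 5.94, 5.80 and 4.86 at 24 weeks, against 6.76, 6.31, 5.91 and 6.30 at 16 weeks. Replicate 4 at 24 weeks was the lowest array in both genes. Of 17 macrophage markers measured 0 passed, 5 were lower and 1 higher at an unadjusted p under 0.05 (3.69% and 2.40% of all genes), 16 of the 17 differences were below 0, and the median was -0.40. Over all genes 51.5% of the differences were below 0. With the lower level alone 1 marker was lower and 0 higher (1.60% and 1.27% of all genes) at a median of -0.14. By the methods' test on all 8 arrays 1 was lower (2.71% of all genes). Over the 24 alternative settings the lower markers numbered 1 to 12, and the median stayed below 0 in all 24. The most were in the fit on all 16 arrays. In that fit 1279 of 14218 genes had an unadjusted p under 0.05 in either direction, against 866 in the main fit. The mean level of the markers was 1.84 to 2.46 at 24 weeks and 2.36 to 3.18 at 16 weeks, and the highest value was that of replicate 1 at 16 weeks. Cd68, the lysosomal marker, differed by -0.62 and C1qb, a complement chain made by macrophages, by -0.50, and within the lower level these were -0.14 and -0.10. Adgre1, the F4/80 antigen, was close in both groups (-0.04), so that not all defining markers were clearly lower. The 1 marker with a difference above 0 was higher by 0.34.

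Further myeloid and lymphoid genes were among those with the smallest p values. Pilra, an inhibitory receptor of myeloid cells, had 1.05, 0.20, 0.21 and 0.86 at 24 weeks, against 1.90, 2.10, 2.63 and 2.21 at 16 weeks. The groups were apart at both array levels, with a difference of -1.63 (SE 0.22, adjusted p = 0.0922 by limma) and of -1.84 within the lower level. Fcmr, the receptor for IgM, had 2.62, 2.94, 2.76 and 2.41 at 24 weeks, against 3.59, 3.35, 3.14 and 3.34 at 16 weeks. Fcrl2, a relative of the Fc receptors, had -1.98, -1.82, -1.91 and -1.88 at 24 weeks, against -1.11, -1.40, -1.12 and -1.12 at 16 weeks. Fcrl2 thus lay among the dimmest genes at 24 weeks, where a log2 difference (-0.71) is hard to measure. Apbb1ip, an adaptor for integrin activation in leukocytes, differed by -0.72 over all 8 arrays and by -0.48 within the lower level. Among 36 chemokines and cytokines 3 were lower and 1 higher at an unadjusted p under 0.05 (3.69% and 2.40% of all genes), with Ccl7, a chemokine for monocytes, at -0.94, Il1b at -0.64, Ccl6 at -0.39 and Ccl24 at 0.49. Of the same genes 2 were lower and 0 higher within the lower level (1.60% and 1.27% of all genes), with Ccl7 at -0.57 and Ccl6 at -0.23. The complement list had 3 lower and 1 higher of 22, against the same shares of all genes, among them C3 at -0.50 and Colec11 at -0.42, and Cfd, the factor D that fat cells also secrete, at 0.51. It had 0 lower and 1 higher within the lower level (1.60% and 1.27% of all genes), where C3 was at -0.33. The median of the list was 0.04 there, against -0.16 over all 8 arrays. Over the 24 alternative settings that median was below 0 in 22.

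Markers of the mesothelium, the sheet that covers the heart, had lower values at 24 weeks in part, but their levels overlapped between the groups. Of 11 measured 0 passed, 5 were lower and 0 higher at an unadjusted p under 0.05 (3.69% and 2.40% of all genes), and the median was -0.37. The arrays of the lower level gave 4 lower members (1.60% of all genes) at a median of -0.61. By the methods' test on all 8 arrays 0 were lower (2.71% of all genes). The mean level of the markers was -0.38 to 0.28 at 24 weeks and -0.11 to 0.63 at 16 weeks, with replicates 3 and 1 at 16 weeks the highest. Upk1b, a uroplakin of the mesothelium, had 0.39, -1.06, -0.35 and -1.38 at 24 weeks, against 1.55, -0.54, 1.30 and 0.87 at 16 weeks. Upk1b thus varied widely inside each group, and Msln, the gene of mesothelin, ran from -0.48 to 1.60 at 24 weeks and from 0.44 to 2.03 at 16 weeks. The keratins Krt8 (-0.70), Krt18 (-0.67) and Krt19 (-0.85) lay below the median probe set in most arrays. The part of these markers in the differences of the matrix and macrophage genes was not tested. Postn and Timp1 were highest in replicates 1 and 2 at 16 weeks. The mean mesothelial levels at 16 weeks were 0.47, -0.11, 0.63 and 0.34 in replicates 1 to 4.

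A part of the genes of fat handling had lower values at 24 weeks. Ucp3, the uncoupling protein of muscle mitochondria, had 0.28, 0.12, 0.35 and 0.67 at 24 weeks, against 1.58, 0.91, 1.11 and 1.18 at 16 weeks. All 24-week arrays were below all 16-week arrays, with a difference of -0.84 (SE 0.16, adjusted p = 0.317 by limma) and of -0.79 within the lower level. The second probe set of Ucp3 differed by -0.34. Angptl4, an inhibitor of lipoprotein lipase, had -0.82, -0.11, 0.30 and -0.20 at 24 weeks, against 2.90, 1.38, 0.15 and 1.57 at 16 weeks. It differed by -1.71 (SE 0.46), although replicate 3 at 16 weeks lay inside the 24-week range, and by -1.07 within the lower level. Gpam, the first enzyme of glycerolipid synthesis, differed by -0.91, and the lipase genes Pnpla2 and Pnpla3 by -0.35 and -0.39, with Pnpla2 at -0.18 within the lower level. Of 26 genes of triglyceride storage and lipolysis 5 were lower and 0 higher at an unadjusted p under 0.05 (3.69% and 2.40% of all genes), at a median of -0.17, and within the lower level 3 were lower and 0 higher (1.60% and 1.27%). Medag, a gene first described in the differentiation of fat cells, had 2.93, 3.60, 3.22 and 3.21 at 24 weeks, against 3.73, 4.19, 4.32 and 4.05 at 16 weeks, and 3 of its 4 probe sets differed by -0.71 to -0.94.

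**Figure D3:**
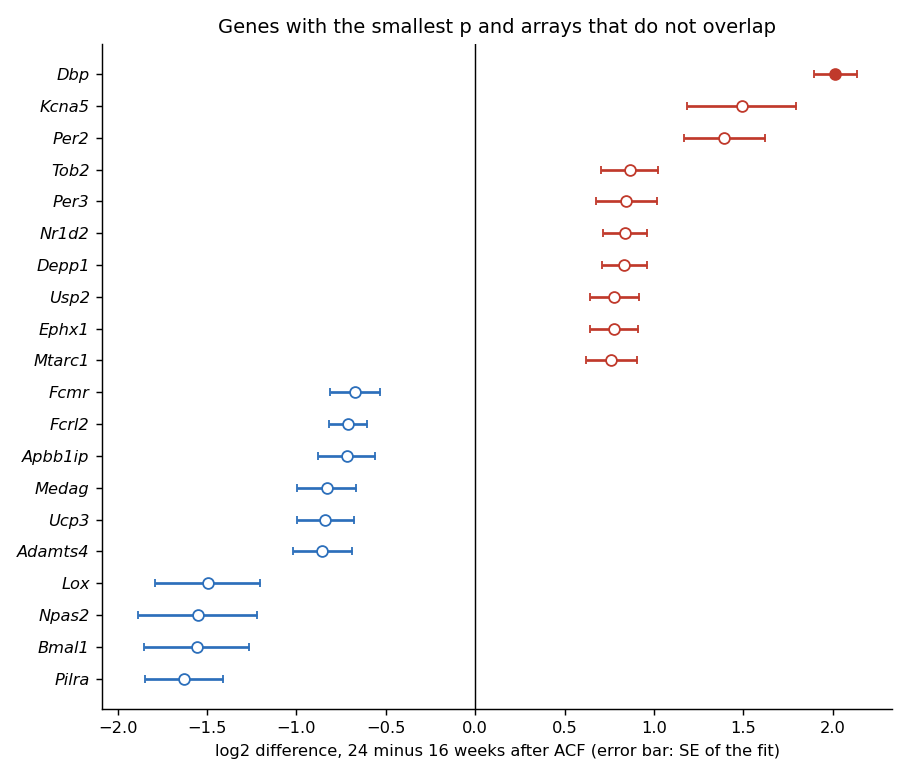
Log2 difference, 24 minus 16 weeks after ACF (horizontal axis), of the 10 genes higher and the 10 genes lower at 24 weeks with the smallest p values and arrays that did not overlap; bars are the SE of the fit, and the filled point is the gene past an adjusted p of 0.05. Dbp (2.02) is the one filled point, and Pilra (-1.63) and Bmal1 (-1.56) are the lowest.

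Genes of stress and hormone response varied within both groups. Mt2A, a metallothionein, had 2.69, 2.90, 2.92 and 2.59 at 24 weeks, against 6.09, 4.25, 3.93 and 3.70 at 16 weeks, and replicate 1 at 16 weeks was far above its group. The difference was -1.72 (SE 0.42), and -1.04 within the lower level. Klf2, the factor that blood flow induces in endothelium, had 5.11, 5.67, 5.57 and 5.48 at 24 weeks, against 3.97, 4.98, 4.96 and 4.79 at 16 weeks. Its 5 probe sets differed by -0.20 to 1.01, so they did not give 1 picture. Jun lay higher at 24 weeks by 0.63 and Jund by 0.26, both with overlapping arrays. Of 38 immediate early and stress factors 5 were higher and 1 lower at an unadjusted p under 0.05 (2.40% and 3.69% of all genes), 2 were higher and 1 lower within the lower level (1.27% and 1.60%), and Klf2 was the 1 member whose arrays did not overlap. Of 14 glucocorticoid-responsive genes 3 were higher and 2 lower, against the same shares of all genes, and 1 and 2 within the lower level, with Tsc22d3 at 0.59, Klf9 at 0.33 and Per1 at 0.74 above and Mt2A and Angptl4, described above, below.

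Of 28 endoplasmic reticulum genes 3 were lower and 0 higher at an unadjusted p under 0.05 (3.69% and 2.40% of all genes). Within the lower level 0 were lower or higher (1.60% and 1.27% of all genes). Edem1, which sends misfolded proteins to degradation, differed by -0.58, and the oxidases Ero1a and Ero1b by -0.37 and -0.36, with Ero1b at -0.23 within the lower level. Pdia6, a protein disulfide isomerase, was at -0.35 over all 8 arrays and at -0.08 within the lower level. In the antioxidant list 2 of 41 were higher and 2 lower, near the shares over all genes (2.40% and 3.69%), with the glutathione transferases Gsta1 (0.47) and Gsta4 (0.33, and 0.18 within the lower level) above and Mt2A and Txnip (-0.35), an inhibitor of thioredoxin, below. Sqstm1, the autophagy receptor p62, differed by 0.29 without overlap. The atrophy and autophagy list, which holds Sqstm1, had 2 higher and 4 lower of 33 (2.40% and 3.69% of all genes) at a median of 0.02. It had 0 of either within the lower level (1.27% and 1.60% of all genes), so the list had no common direction. Among its lower members were Klhl40 (-0.36), which stabilises thin filament proteins, the protease Ctsl (-0.49) and Cited2 (-0.49), a regulator of hypoxia signals, the last 2 both at -0.27 within the lower level. Another bright probe set of Cited2 differed by -0.05.

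Most contraction, calcium and fetal genes stood close together in the 2 groups. Nppa, the gene of atrial natriuretic peptide, had 6.87, 8.32, 7.42 and 7.37 at 24 weeks, against 8.26, 7.66, 7.84 and 7.74 at 16 weeks, and the arrays overlapped fully. Nppb differed by -0.12 and Myh7, the slow myosin heavy chain, by 0.03. Control rats had Nppa at 4.20 to 6.90, so all arrays but replicate 1 at 24 weeks (6.87) lay above them. Of the 24 hypertrophy and fetal genes measured 1 was higher and 2 lower at an unadjusted p under 0.05, near the shares over all genes (2.40% and 3.69%), at a median of -0.01. The higher one was Hand2 (0.35), a factor of heart development, without overlap, and the lower ones were Rgs2 (-0.84), a brake on G protein signals, and Fhl1 (-0.60, and -0.18 within the lower level), a LIM protein of the sarcomere. Of 29 calcium genes 1 was higher and 2 lower, against the same shares of all genes, the higher one being Camk2b, which encodes a chain of the calcium-dependent kinase CaMKII. Camk2b had 1.04, 0.47, 0.45 and 0.17 at 24 weeks, against -0.18, -0.33, -0.15 and -0.19 at 16 weeks, without overlap, and its dimmer probe set differed by 0.30. Asph (-0.30) and Jph1 (-0.41, and -0.13 within the lower level) were the lower ones, and Hrc, a calcium store protein, was at 0.32 and within the lower level at 0.09. Of 36 sarcomere and Z-disc genes 1 was higher and 3 lower at an unadjusted p under 0.05 (2.40% and 3.69% of all genes), and 1 and 1 within the lower level (1.27% and 1.60%). The lower ones, all past 1.5-fold, were Ankrd2 (-1.33) and Ankrd23 (-0.79), ankyrin repeat proteins that respond to stretch in muscle, and Myot (-1.03), the gene of myotilin at the Z-disc. Ankrd2 had 0.23, 0.46, -0.18 and 0.15 at 24 weeks, against 1.95, 2.62, 0.64 and 0.75 at 16 weeks. Its groups did not overlap, and the arrays of the higher level were the highest. Tcap (0.27) was the higher one, and Tnni3 (0.15, and 0.07 within the lower level) and Mybpc3 (0.25, and 0.02 within it) overlapped between the groups.

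The energy genes that the study follows differed little between 24 and 16 weeks. Of 23 such genes 21 were measured, 0 passed, 3 were higher and 0 lower at an unadjusted p under 0.05 (2.40% and 3.69% of all genes), and the median was 0.17. The lower level alone gave 0 higher and 1 lower (1.27% and 1.60% of all genes), at a median of 0.09. The differences were above 0 in 19 of 21 genes. The study chose these genes for their change in its own comparisons with sham controls, so this direction is not independent evidence. Eno3, the muscle enolase, had 5.57, 5.11, 5.25 and 4.99 at 24 weeks, against 3.84, 4.37, 4.74 and 5.05 at 16 weeks. Pgam2, the muscle phosphoglycerate mutase, had 6.54, 6.05, 6.58 and 6.66 at 24 weeks, against 5.18, 5.66, 6.20 and 6.51 at 16 weeks. In both genes replicates 1 and 2 at 16 weeks were low and replicates 3 and 4 near the 24-week values. Within the lower level Eno3 differed by 0.34 and Pgam2 by 0.10, against 0.73 and 0.57 over all 8 arrays. Acads, an acyl-CoA dehydrogenase, had 5.15, 4.69, 5.05 and 5.18 at 24 weeks, against 3.90, 4.39, 4.59 and 5.17 at 16 weeks, and it differed by 0.14 within the lower level, against 0.51 over all 8 arrays. The glucose transporter Slc2a4 (0.43), the phosphofructokinase Pfkm (0.38), the phosphatase Pdp2 (0.55) and Acaa2 of beta-oxidation (0.33) leaned the same way with overlapping arrays. These 4 differed by 0.09, 0.12, 0.15 and 0.10 within the lower level. Gfpt2, the first enzyme of the hexosamine pathway, lay at 2.33 ± 0.31 at 24 weeks and 2.32 ± 0.34 at 16 weeks (SD, n = 4 each), and within the lower level it differed by 0.23.

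Regulators and beta-oxidation enzymes of that list had small differences over all 8 arrays, and some moved with the level. Ppargc1b, a coactivator of mitochondrial genes, differed by 0.37 over all 8 arrays and by -0.02 within the lower level. Ehhadh, a peroxisomal enzyme of beta-oxidation, differed by -0.22 over all 8 arrays and by -0.61 within the lower level, where it was the 1 lower member. Pfkfb1 differed by 0.22. Acadvl (0.17), Acsf2 (0.19), Acsf3 (0.11), Acsl1 (0.08), Acsl6 (0.14) and Hadha (0.09) lay just above 0, each by less than its SE. Rxra (0.02), Slc25a20 (0.01), Echdc2 (0.03) and Echdc3 (-0.01) were also at 0 within their SE. The genes Acsf3 (-0.19), Acsl1 (-0.03), Acsl6 (-0.15) and Slc25a20 (-0.03) changed sign within the lower level. There Acadvl was at 7.75e-05, Echdc3 at -0.26, Hadha at 0.05 and Rxra at 0.11. The creatine kinase gene Ckm differed by 0.40 over all 8 arrays and by -0.04 within the lower level. Of 69 genes of the respiratory chain 0 were higher or lower at an unadjusted p under 0.05, against 2.40% and 3.69% of all genes. In the glycolysis list 2 of 22 were higher, Eno3 and Pgam2, and 1 was lower, against the same shares. The lower one was Pfkp, the platelet-type phosphofructokinase, which differed by -0.76 over all 8 arrays and by -0.36 within the lower level. Slc2a1, the basal glucose transporter, was at -0.37 and within the lower level at -0.07. Within that level the glycolysis list held 0 higher and 0 lower members (1.27% and 1.60% of all genes).

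**Figure D4:**
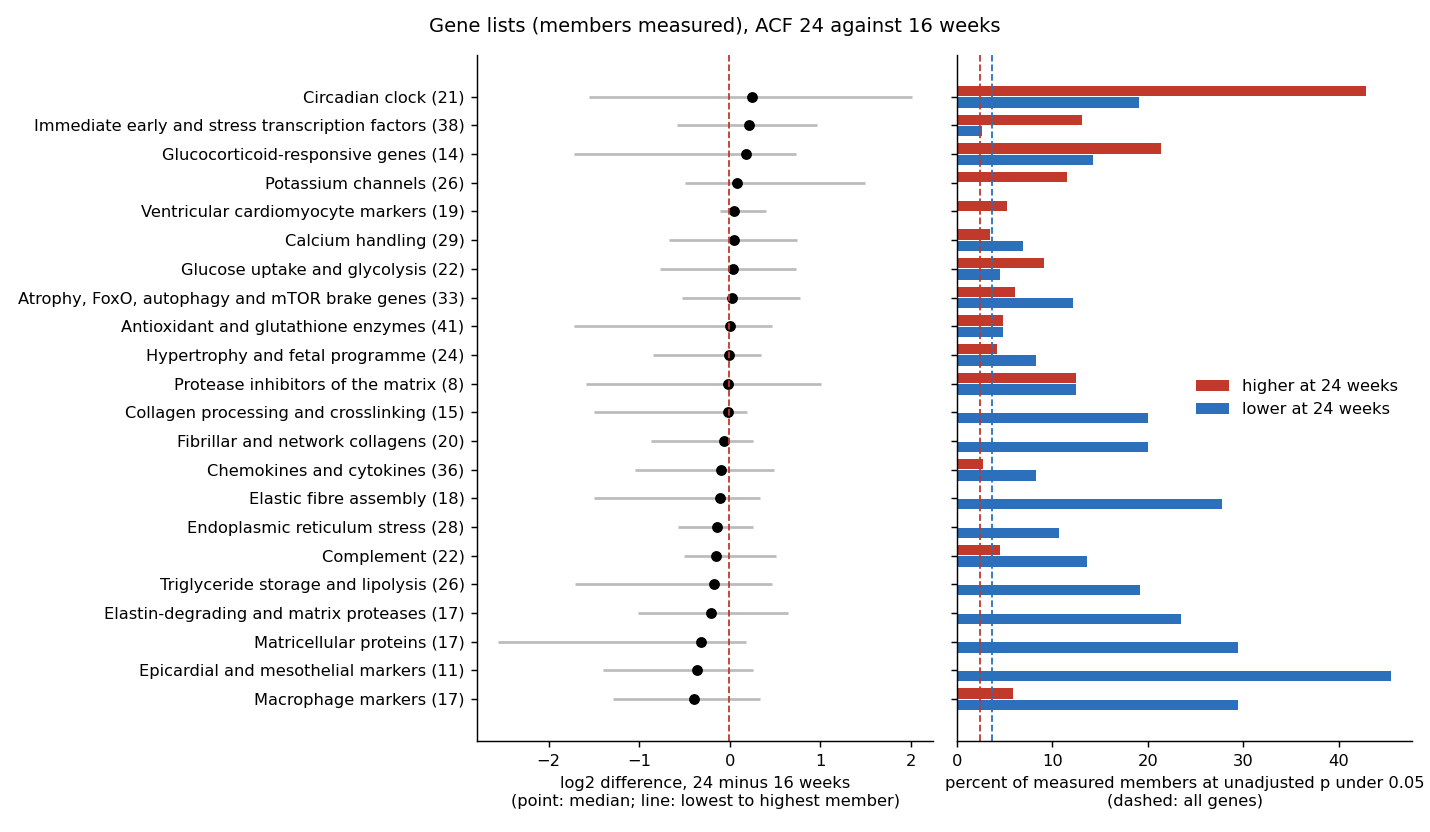
Left, the median log2 difference, 24 minus 16 weeks after ACF, of 22 gene lists (point) with the lowest and the highest member (line), and the median of all genes (dashed); right, the percent of measured members at an unadjusted p under 0.05, higher and lower at 24 weeks, with the percent over all genes (dashed, 2.40 and 3.69). The clock list held 9 higher and 4 lower members of 21, and the macrophage list had the lowest median (-0.40).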

How the data were processed

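RNA of the left ventricle was measured on Affymetrix arrays, 1 per rat. Per the labels, total RNA came from a fibrous tissue kit, whereas the study's methods name another extraction and another rat array than the one these probe sets belong to. For each probe set the authors deposited a log2 intensity. They ran RMA, which corrects background, equalises the distributions of arrays processed together and joins the probes of a set, with Affymetrix Expression Console 1.2. The deposited arrays were not all equal in distribution, since their medians stood at 2 levels. RMA draws low intensities together, so differences of dim genes are understated. The number of arrays limits the precision.

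Each array was centred on its median over all 31099 probe sets. Of these, 20832 carry 1 gene symbol in the platform annotation, 436 carry several and 9780 carry none, with 57 control probe sets left apart, and the probe set with the highest mean over 16 arrays stood for each of 14218 genes. Groups came from the array titles. The means of 24 and 16 weeks were compared on these 8 arrays with limma 3.58.1 in R 4.3.3 (moderated test, variance prior over all genes), and p was adjusted by the Benjamini-Hochberg method at 0.05. SE is that of the fit, and SD the spread of 4 arrays. Permutation tests were exact and two-sided. The labels do not say whether rats shared a litter or day, so p-values measure only the spread between these arrays.

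Named were genes past the adjusted test whose arrays did not overlap (at most 15 per direction), filled to 10 per direction by the smallest p among genes with a fold above 1.5 and no overlap, up to 4 members of each described list by p, and the genes the study names for energy metabolism. Genes known only by a locus or clone number were passed over. A few others (Myl2, Myl7, Adgre1, Msln, Ankrd2, Ankrd23, Myot and the remaining clock genes, for example) were chosen after their values were seen. The comparison, the members and the gene lists were chosen with earlier results of these data known. The level of a list on an array is the mean of its members.

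Tried besides were arrays not centred, 12 or 16 arrays in the fit, a trended robust prior, the methods' unpaired test of equal variance, the array level as a block or the lower level alone, cyclic loess, quantile normalization, array weights, the replicate block, the upper 50% of genes, other rules for probe sets and leaving out each array. Leaving out both arrays of lowest weight was chosen after seeing the data. The functions were checked on simulated data. Promoter windows came from RefSeq (GRCr8). Figures were drawn with matplotlib 3.10.9.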

Additional observations from a re-analysis of the deposited data

Results flagged for a closer look

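In 228 groups of 4 arrays over the named genes (24 and 16 weeks), 10 had 1 array so far from the rest that its gap to the nearest of the others, divided by the range of the group, was above Dixon's limit for 4 arrays. Chance flags about 1 in 20 groups. At 24 weeks the gap was 0.837 of the range for Adamts4 (replicate 1 at -2.11, the others at -1.60 to -1.504), 0.952 for Gsta1 (replicate 1 at 4.58, the others at 4.04 to 4.07), 0.897 for Pnpla2 (replicate 2 at 3.90, the others at 4.34 to 4.38) and 0.884 for Timp4 (replicate 2 at 1.85, the others at 2.82 to 2.95). At 16 weeks it was 0.977 for Ccl6 (replicate 3 at 3.00), 0.861 for Dbp (replicate 4 at 0.93), 0.832 for Eln (replicate 4 at 0.89), 0.899 for Ero1b (replicate 2 at 1.52), 0.977 for Fcrl2 (replicate 2 at -1.40) and 0.850 for Tgm2 (replicate 2 at 6.30). For Dbp the whole range at 16 weeks was narrow, from 0.93 to 1.10, and the same array was the lowest in Per1 (1.55) and Per2 (1.40).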

How the results depend on the processing

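Dbp was the gene called higher in the main fit and under most alternatives, and its difference ran from 1.72 to 2.10. It was no longer past the threshold in the fit on 12 arrays (adjusted p 0.251, 0 genes called higher), on 16 arrays (0.0840, 0 genes) and on 16 arrays with the level as a block (0.435, 0 genes), where the spread of the 8-week and control arrays enters. Genes called higher numbered 2 with the mean of all probe sets (Dbp and Hlf) and 3 when every named probe set was tested, and 1 to 7 without single arrays, the highest without replicate 3 at 16 weeks and 2 without replicate 2 at 24 weeks. Genes called lower numbered 0 in the main fit and 1 with arrays not centred (Pilra), within the lower level, and without both arrays of lowest weight (Bmal1 in both), and 0 to 1 without single arrays. Centring bears on the balance, since uncentred values had a median difference of -0.09. At the methods' threshold (54 higher and 131 lower in the main fit) there were 40 and 201 with arrays not centred, 31 and 62 by the methods' test, 53 and 65 with the level as a block on 8 arrays, 39 and 68 with it on 16, 60 and 71 within the lower level, 59 and 82 with array weights, 34 and 62 in the upper 50% of genes and 67 and 49 without both arrays of lowest weight. Without single arrays they were 48 to 107 higher and 75 to 199 lower, with the higher extreme without replicate 3 at 16 weeks (107) and the extremes for lower genes without replicate 4 at 24 weeks (86 and 75) and without replicate 4 at 16 weeks (99 and 199). Replicate numbers did not pair the arrays, since deviations of same-numbered arrays correlated at -0.00, 0.15, -0.04 and 0.16, and with the replicate block there were 1 and 0 calls, and 66 and 154 at the methods' threshold.

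Of the named genes, 13 energy genes changed sign under some alternative, most of them with a difference near 0, but also Ckm (0.40) and Ppargc1b (0.37). With the level as a block on 8 arrays, and equally within the lower level, the differences were -0.19 for Acsf3, -0.025 for Acsl1, -0.15 for Acsl6, -0.042 for Ckm, -0.018 for Ppargc1b and -0.032 for Slc25a20. With arrays not centred they were -0.013 for Acsl1, -0.054 for Echdc2, -0.080 for Gfpt2, -0.00040 for Hadha, -0.072 for Rxra and -0.074 for Slc25a20. With array weights it was -0.00084 for Slc25a20, and with quantile normalization 0.0045 for Echdc3. Without both arrays of lowest weight they were -0.081 for Acadvl, -0.055 for Acsf2, -0.11 for Acsf3, -0.028 for Acsl1, 0.0070 for Echdc3, -0.061 for Hadha and -0.044 for Slc25a20. The ranges without single arrays were -0.0060 to 0.38 for Acsf2, -0.11 to 0.24 for Acsf3, -0.0055 to 0.27 for Acsl6, -0.10 to 0.12 for Echdc2, -0.16 to 0.074 for Echdc3, -0.16 to 0.13 for Gfpt2, -0.037 to 0.084 for Rxra and -0.065 to 0.14 for Slc25a20. No other named gene changed sign under these alternatives. The cause of these shifts was not tested. Differences of genes below the median probe set are limited by their signal.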

Other observations

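Beyond the probe sets of 1 gene, 10216 others were tested, and 0 of them passed an adjusted p of 0.05 over all probe sets. The nearest carries no symbol. It had 1.79, 1.99, 2.14 and 1.92 at 24 weeks, against 2.88, 2.90, 3.05 and 2.68 at 16 weeks, a difference of -0.92 (adjusted p = 0.0590 by limma). A pair of other probe sets carries the symbols of both Fcgr2al1 and Fcgr2a, low-affinity receptors for IgG, and differed by -1.70 and -1.69. The first of the pair had 1.91, 2.38, 2.28 and 1.01 at 24 weeks, against 3.99, 3.62, 3.13 and 3.64 at 16 weeks. They lay the same way as Cd14 and Pilra, on arrays of both levels, but their signal cannot be given to 1 gene.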
